A study of Mus musculus with 74 samples.

Results

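Genes of ribosome biogenesis in the nucleolus, 40 in number, were followed through the activation and polarization of mouse naïve CD4+ T cells. The list was set by name and not by any measured value, though with earlier results of these data known. Of these, 38 had a probe with their symbol on the array and 34 passed the filter on dim probes. *Fbl*, the methyltransferase of box C/D particles, and *Npm3*, a relative of nucleophosmin, had no probe with their symbol. *Nop16*, *Wdr12*, *Utp3*, and *Utp20* had a probe but stayed dim. Their highest condition means were 6.55, 6.47, 6.54, and 6.46 on the log2 scale, against a filter at 6.77. No difference is reported for these 4 genes. The tested 34 stand among 13817 genes tested in all.

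RNA of 74 samples was hybridized to Illumina mouse bead arrays. The cells came from pooled spleen and lymph nodes of Balb/c mice aged 5-8 weeks and were sorted magnetically as naïve CD4+ CD62L-high T cells. Those at 0 h were labelled naïve, with no cytokine or blocking antibody, and all later cells were activated with anti-CD3 and anti-CD28. The activation label of the 0 h samples names these antibodies too, at a time of 0 hours. Th0 cells were cultured with blocking antibodies alone (anti IFNg, anti IL4, and anti IL12). Th1 cells were given IL-12 plus anti IL4, and Th2 cells were given IL4 plus anti IL12 and anti IFNg. Th1/2 hybrid cells, labelled ThMix, were given IL12 together with IL4 and no blocking antibody. Each culture was measured at 3, 6, 12, 24, 35, 48, 73, 96, and 120 h, which with 0 h gives 37 conditions of 2 arrays, 1 from each of 2 experiments. The cultures were moved to a new plate and split on day 2, so this step and time cannot be told apart after 48 h. The number of cells per culture was not used here, and a smaller share of cells with a transcript cannot be told apart from less RNA per cell.

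All 6 markers of the CD4 T-cell list passed the filter. *Cd3e*, *Cd3d*, *Cd3g*, and *Cd2* were at a log2 level of 11.96 or above on every array. *Cd4* ran from 8.05 to 9.9, and *Cd5*, from 6.58 to 8.01, was around the filter. *Cd8a* was dim on every array, whereas *Cd8b1* had a log2 level between 11.17 and 12.88. The 2 arrays at 0 h also held signal for other cells. The summed intensity of 6 myeloid markers was 1588 to 2557 at 0 h and 517 to 1406 at 3 to 35 h, that of 2 erythroid markers was 3163 to 4896 at 0 h and 222 to 5006 at 3 to 35 h, and that of 3 B-cell markers was 913 to 1254 and 350 to 1537. The erythroid sum was at most 280 late. In the latter pair of lists some arrays after activation thus exceeded 0 h. Every difference from 0 h below rests on these same 2 arrays, and the part of these cells in it was not tested. An array of Th1/2 cells at 12 h in experiment 1 and an array of Th0 cells at 96 h in experiment 2 stood apart in an earlier analysis of these data. Against the other cultures of the same time and experiment, *Nop56* departed by 2-fold or more in the first, and *Ncl*, *Nop2*, *Nop58*, *Rrp9*, and *Pes1* did in the second. The Th0 array at 96 h in experiment 1 also departed, by 2-fold in *Pes1*, and the members' median departure was 0.53 on the log2 scale there and 0.43 in experiment 2. Late counts of culture differences that turn on the first 2 arrays are given with and without both. Peak times were not recomputed without them. The Th0 array at 96 h in experiment 1 was left out only together with the other Th0 arrays of that experiment.

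Ribosome biogenesis starts with transcription of the precursor ribosomal RNA by RNA polymerase I in the nucleolus. Small nucleolar ribonucleoprotein particles (snoRNP) then guide its modification, box C/D particles for methylation and H/ACA particles for pseudouridine. Assembly factors cleave and fold the RNA together with ribosomal proteins into the small and the large subunit. Resting T cells are small and make few ribosomes, and activated T cells enlarge, with prominent nucleoli, before they divide.

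Promoters are shown for 4 members on which the results below turn. *Nop2* had the largest difference from 0 h at 6 h, *Pes1* and *Ncl* were the members lowest in late Th2 cells relative to Th0 cells, and *Polr1c* reached its highest level last. The 120 bases before the RefSeq start of each gene are given 5′ to 3′ on the gene's strand (GRCm38.p6). Capitals mark matches, on either strand, to the E-box CACGTG that MYC binds, to the CCAAT box, to the GC box with letters GGGCGG, or to a TATA box with letters TATAAA.

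*Nop2*, chr6:125131763-125131882, plus strand: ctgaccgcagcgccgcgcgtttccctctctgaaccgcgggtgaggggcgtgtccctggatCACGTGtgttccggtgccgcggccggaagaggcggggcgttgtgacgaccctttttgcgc
*Ncl*, chr1:86359456-86359575, minus strand: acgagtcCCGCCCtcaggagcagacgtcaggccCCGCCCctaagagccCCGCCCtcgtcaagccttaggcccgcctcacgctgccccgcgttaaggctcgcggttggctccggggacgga
*Pes1*, chr11:3963855-3963974, plus strand: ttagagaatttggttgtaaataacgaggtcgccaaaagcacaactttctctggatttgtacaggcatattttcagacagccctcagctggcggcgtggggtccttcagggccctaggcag
*Polr1c*, chr17:46248046-46248165, minus strand: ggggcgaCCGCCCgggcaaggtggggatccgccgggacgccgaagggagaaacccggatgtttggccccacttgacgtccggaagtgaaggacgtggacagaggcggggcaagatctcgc

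The table held a promoter for 33 of the 38 members on the array, and *Bop1*, *Dcaf13*, *Npm1*, *Rrp12*, and *Rrs1* were not in it. Within 250 bases before the start, GGGCGG occurred in 22 of the 33 (66.7%) and in 32.9% of all 27025 promoters of the table. The members' windows were also richer in G and C, with a median of 60.0% against 52.0%. CACGTG occurred in *Nop2* alone, 60 bases before its start (3.03% against 6.05%). CCAAT occurred in 8 members (24.2% against 34.5%) and TATAAA in 2, *Pes1* and *Dkc1* (6.06% against 13.0%). These counts describe letters in this window and say nothing of bound factors.

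Most members rose together within hours of activation, peaked at 6 to 12 h, and were near or below their 0 h level from 73 h. At 73 h *Nhp2*, *Polr1c*, *Noc4l*, and *Rrp1b* were still above both arrays at 0 h on all 8 arrays. The difference from 0 h was taken as the mean of the 4 cultures, and a member was called higher at an adjusted p under 0.05 with at least 2-fold (limma, Benjamini-Hochberg adjustment over all genes). At 3 h, 23 of 34 members were called higher, against 4.55% of all genes. At 6, 12, and 24 h the counts were 30, 30, and 28, against 7.85%, 8.58%, and 10.9% of all genes. At 35 and 48 h they were 23 and 7, against 10.3% and 9.62%. No member was called higher at 73, 96, or 120 h, against 8.3%, 7.52%, and 7.31% of all genes. By unadjusted p alone the counts above 0 h at these times were 4, 2, and 3, and no share of all genes is given for these. *Npm1*, *Nop10*, *Dkc1*, and *Nolc1* were not called 2-fold higher at any time.

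The median log2 difference of the members from 0 h went from 1.33 at 3 h to 1.85 at 6 h and 1.79 at 12 h. At 24, 35, and 48 h it was 1.45, 1.40, and 0.52. At 73, 96, and 120 h it lay below 0, at −0.22, −0.43, and −0.45. Over all genes tested the median stayed between −0.002 and 0.04. In experiment 1 the members' median was 1.44 at 3 h and 1.72 at 6 h, and in experiment 2 it was 1.10 and 1.92. With the 4 dim members counted in, the median over 38 genes was 1.68 at 6 h and −0.37 at 120 h.

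**Figure D1:**
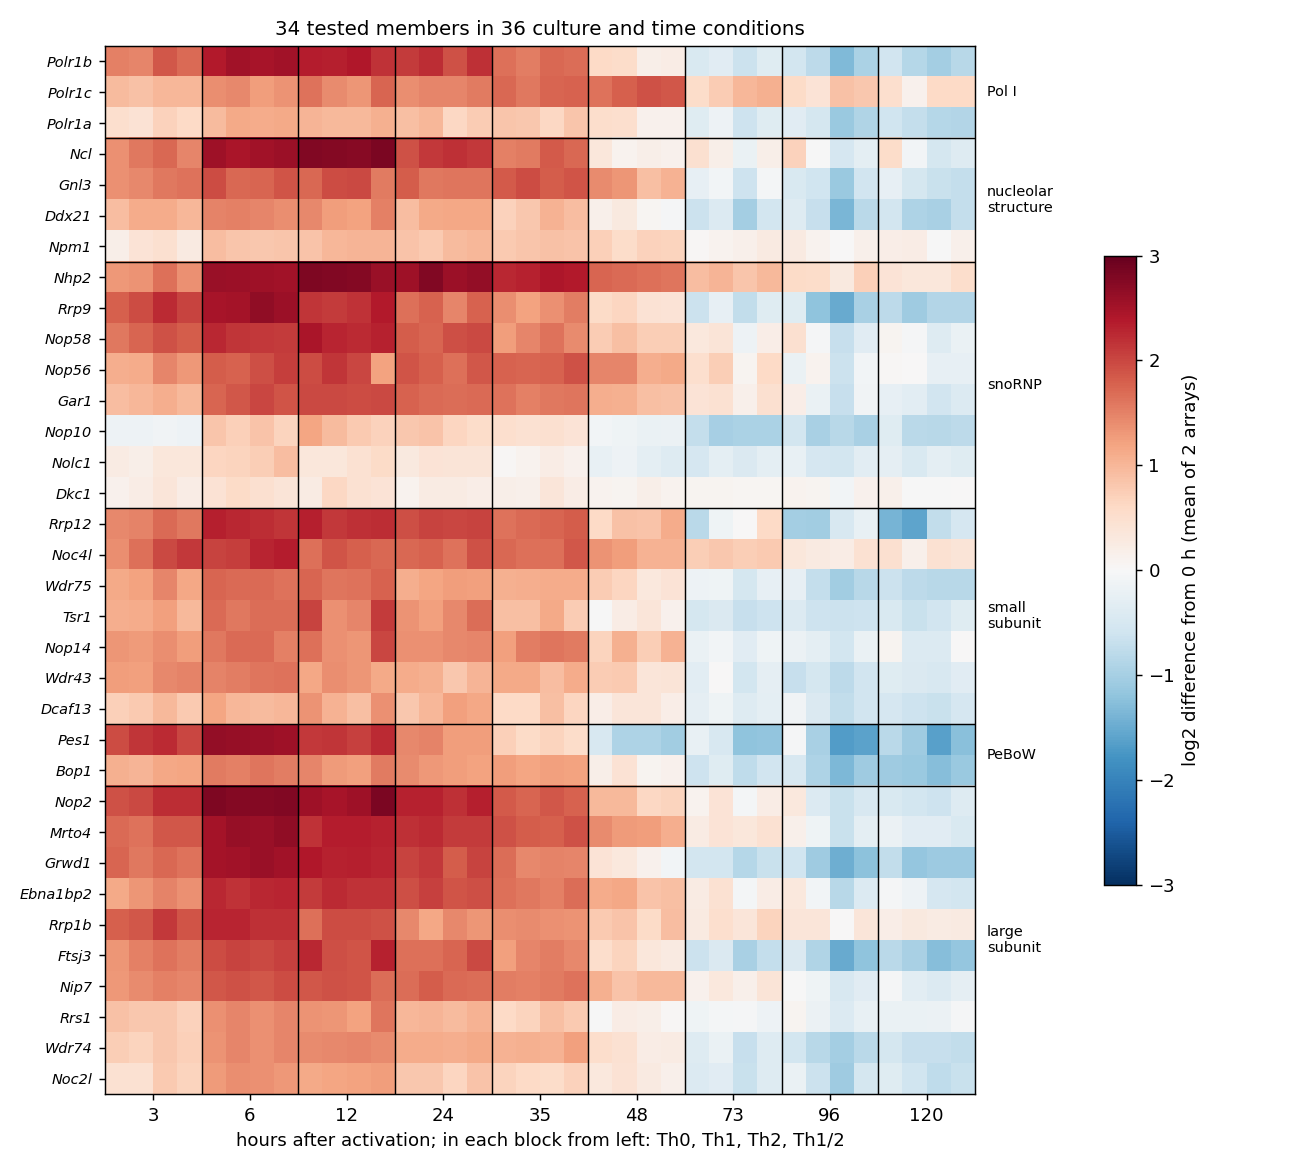
Log2 difference from 0 h (colour, mean of 2 arrays) of the 34 tested members, in rows by class, in Th0, Th1, Th2, and Th1/2 cells at 9 times, in columns. The left 5 blocks of time are red for nearly every member, *Nop10* at 3 h being blue, and most rows turn blue from 73 h while *Nhp2* and *Polr1c* stay red.

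**Figure D2:**
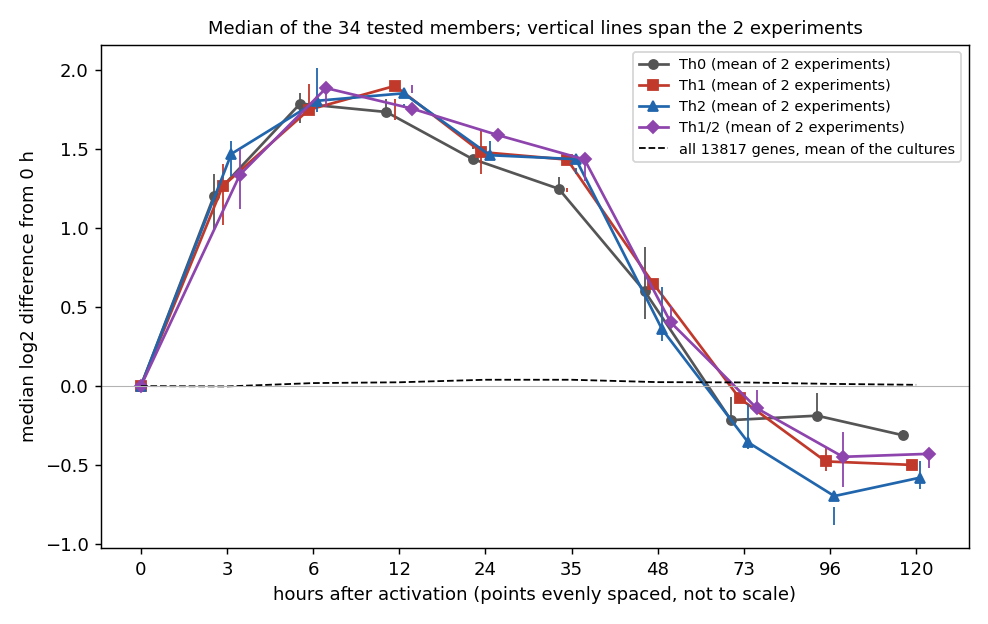
Median log2 difference from 0 h over the 34 members (vertical axis) against time after activation (horizontal axis, evenly spaced points) in the 4 cultures, with lines that join the medians of the 2 experiments taken alone and a dashed line for all genes. A median of mean values need not lie between the medians of the experiments. The 4 cultures rise to between 1.75 and 1.88 at 6 h and fall below 0 by 73 h.

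RNA polymerase I members differed in size and timing. *Polr1b*, the second-largest subunit, had log2 levels of 9 and 8.83 at 0 h. Its 8 arrays at 6 h ran from 11.15 through a median of 11.38 to 11.57, all above both arrays at 0 h. The difference was 2.47 on the log2 scale (SE 0.26, adjusted p = 8.56e-11), 5.54-fold. At 120 h its arrays ran from 7.75 to 8.36 with a median of 8.07, all below 0 h (−0.82, adjusted p = 0.00934). *Polr1a*, the largest subunit, was 2.12-fold higher at 6 h (adjusted p = 2.28e-07), and at 120 h its difference was −0.76 (adjusted p = 0.00011).

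*Polr1c*, a subunit that RNA polymerase III shares, was highest at 48 h, later than every other member. Its log2 levels at 0 h were 9.98 and 10.43. At 6 h the 8 arrays had a lowest, median, and highest level of 11.32, 11.57, and 11.87, and at 48 h of 11.73, 12.01, and 12.21. The difference from 0 h was 1.35 at 6 h and 1.80 at 48 h (SE 0.19, adjusted p = 1.03e-10), with its highest value at 48 h in both experiments. At 120 h its levels ran from 9.93 to 11.13 and overlapped with 0 h (0.46, adjusted p = 0.0513), and the experiments differed there (1.03 and −0.12).

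Nucleolar structure proteins rose most in *Ncl*, which encodes nucleolin, an abundant RNA-binding protein of the nucleolus. *Ncl* had log2 levels of 10.38 and 10.31 at 0 h. At 12 h the 8 arrays ran from 12.86 through 13.1 to 13.29, a difference of 2.77 (SE 0.18, adjusted p = 1.25e-16), 6.81-fold. By 48 h the arrays ran from 10.3 to 10.92 with a median of 10.49, and the difference was 0.19 (adjusted p = 0.423). *Npm1*, nucleophosmin, a chaperone of the nucleolus, had levels of 14.83 and 14.79 at 0 h and 15.55 to 15.91 at 12 h. All 8 arrays were above 0 h, yet the difference of 0.97 was 1.96-fold and missed the 2-fold criterion (adjusted p = 4.88e-10). *Npm1* was the brightest member, with a mean of 15.35 over all arrays, and whether its signal was near saturation was not tested. *Npm1* was still 1.58-fold higher at 48 h (adjusted p = 2.14e-06).

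*Gnl3*, the GTPase nucleostemin, had log2 levels of 9.27 and 9.05 at 0 h and 10.48 to 10.82 at 3 h. Its largest difference came at 35 h, with arrays from 10.73 through 11.04 to 11.26 (1.87, SE 0.25, adjusted p = 2.9e-08). In experiment 2 alone its peak was at 6 h. It was still called higher at 48 h (2.25-fold). *Ddx21*, a helicase that links transcription and processing of ribosomal RNA, was 2.76-fold higher at 6 h, and at 120 h its difference was −0.78 (adjusted p = 6.41e-05).

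The snoRNP proteins split by size of change. *Nop56*, a core protein of box C/D particles, had log2 levels of 11.06 and 10.69 at 0 h and 12.64 to 13.03 at 6 h. The difference was 1.90 (SE 0.24, adjusted p = 7.32e-09), 3.73-fold. At 12 h the median was 12.84, while the lowest array, that of Th1/2 cells in experiment 1, was at 11.35. Its partner *Nop58* was 4.47-fold higher at 6 h, and *Rrp9*, a protein of the U3 particle, 5.86-fold.

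*Nhp2*, a core protein of H/ACA particles, rose the most of all members at 24 h. Its log2 levels were 11.43 and 11.09 at 0 h and 13.72, 13.9, and 14.06 as lowest, median, and highest at 24 h. The difference was 2.63 (SE 0.17, adjusted p = 4.97e-17), 6.18-fold. At 120 h its 8 arrays, from 11.45 to 11.86, still lay above both arrays at 0 h (0.40, adjusted p = 0.0534). *Gar1*, of the same particle, was 3.67-fold higher at 6 h.

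Other members of H/ACA particles and their chaperone were not called 2-fold higher than 0 h at any time. *Nop10* had levels of 13.52 and 13.41 at 0 h and 13.12 to 13.52 at 3 h, where 5 of 8 arrays were below 0 h. It was 1.87-fold higher at 12 h (0.90, SE 0.21, adjusted p = 0.000253). *Dkc1*, the pseudouridine synthase dyskerin, was dim, with levels of 6.64 and 6.52 at 0 h and 6.69, 7.06, and 7.36 as lowest, median, and highest at 6 h. Its difference was 0.47 at 6 h (SE 0.14, adjusted p = 0.00349) and 0.20 at 24 h (adjusted p = 0.228). *Dkc1* passed the filter through its arrays after activation alone, and the other 33 members passed at 0 h too. *Nolc1*, a chaperone of snoRNP, had a level of 7.38 on both arrays at 0 h and 7.94 to 8.41 at 6 h (0.74, SE 0.13, adjusted p = 4.14e-06). It was below 0 h on all 8 arrays from 48 h on.

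**Figure D3:**
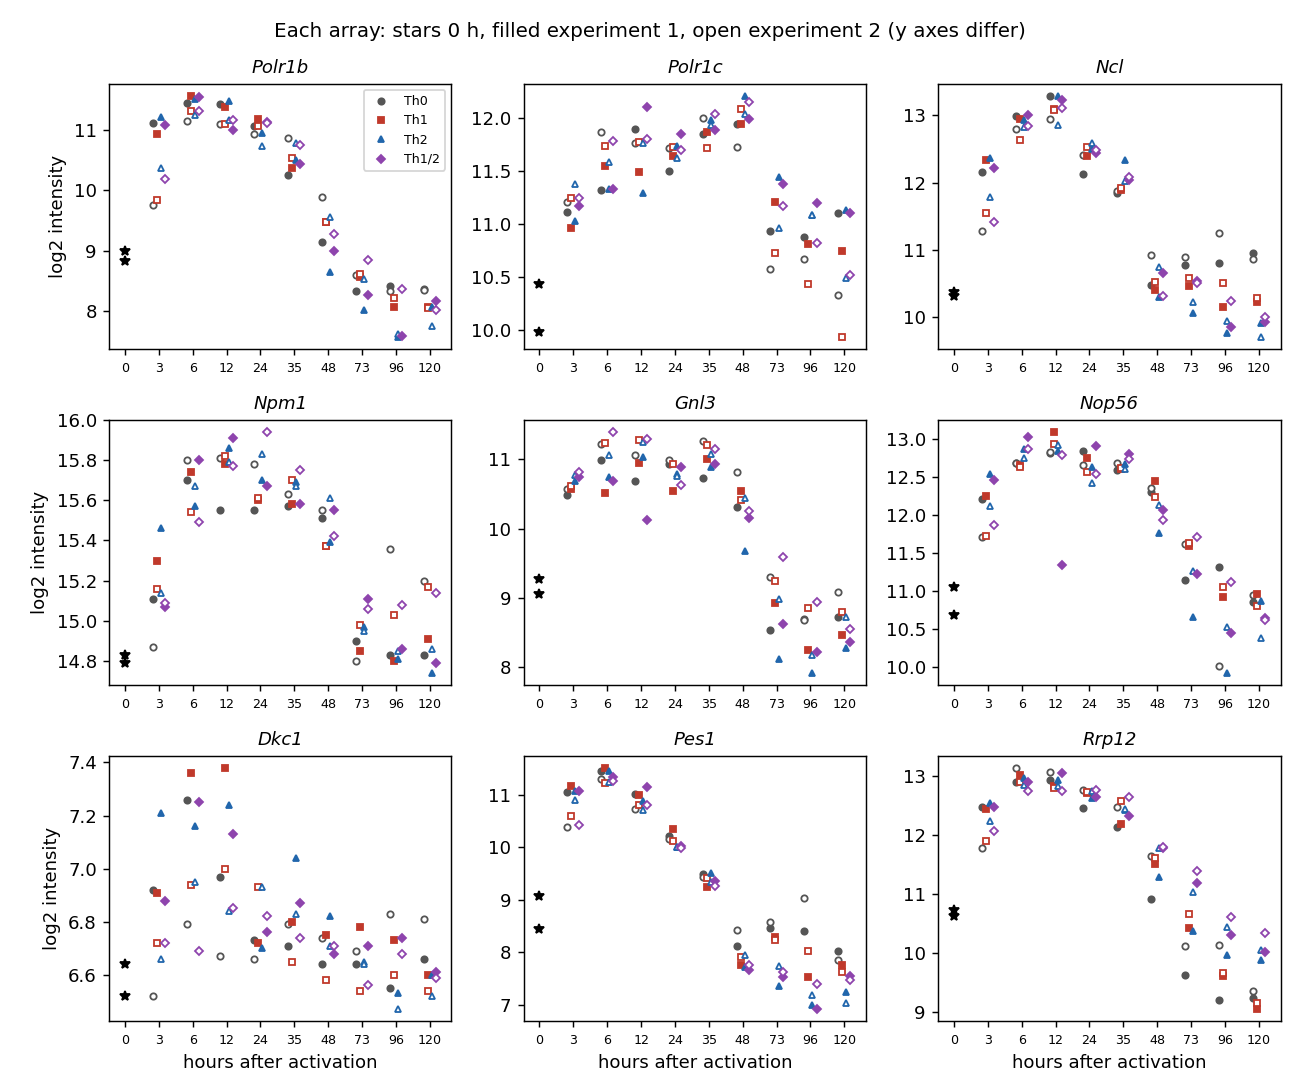
Log2 intensity of 9 members on each array (vertical axis, own scale in each panel) against time after activation, with stars for 0 h, filled symbols for experiment 1, and open symbols for experiment 2. *Polr1c* is highest at 48 h, *Dkc1* stays between 6.47 and 7.38, and the cultures spread apart late in *Ncl*, *Pes1*, and *Rrp12*.

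Large-subunit factors had the most members, with 10 of 10 tested called higher at 6 h and a median difference of 2.12. *Nop2*, a methyltransferase of ribosomal RNA, whose promoter holds the E-box shown above, had log2 levels of 9.2 and 9.44 at 0 h. Its arrays at 6 h ran from 11.97 through 12.09 to 12.25, a difference of 2.77 (SE 0.26, adjusted p = 3.59e-12), 6.82-fold. At 24 h the difference was 2.29. At 120 h its arrays ran from 8.6 to 8.96, all below 0 h, but the difference of −0.51 did not pass (adjusted p = 0.121).

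*Mrto4*, a homologue of a ribosomal stalk protein that acts in assembly, had levels of 9.95 and 9.80 at 0 h and 11.79, 12, and 12.35 as lowest, median, and highest at 24 h (2.16, SE 0.19, adjusted p = 6.85e-13). *Grwd1*, a ribosomal protein chaperone, was 5.78-fold higher at 6 h and among the lowest members late (−1.02 at 120 h, adjusted p = 7.23e-05). The other 7 members of the class, *Rrs1*, *Ebna1bp2*, *Nip7*, *Noc2l*, *Wdr74*, *Ftsj3*, and *Rrp1b*, were 2.52-fold to 4.73-fold higher at 6 h.

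*Pes1* and *Bop1* belong to the PeBoW complex of large-subunit maturation with *Wdr12*, which stayed dim. *Bop1* had levels of 9.96 and 10.35 at 0 h and 11.56, 11.69, and 11.95 as lowest, median, and highest at 6 h (1.56, SE 0.19, adjusted p = 4.86e-09). At 120 h it ran from 8.64 to 9.32, all below 0 h, with a difference of −1.14 (adjusted p = 3.66e-06). *Pes1* had levels of 9.08 and 8.44 at 0 h and 11.22 to 11.52 at 6 h (2.60, SE 0.17, adjusted p = 7.32e-17). At 48 h all 8 arrays, from 7.67 to 8.42, were below both arrays at 0 h (−0.84, adjusted p = 4.06e-05).

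Small-subunit factors had 7 of 7 tested members called higher at 6 h, with a median of 1.66. *Rrp12*, which acts in export of the subunits, had log2 levels of 10.73 and 10.63 at 0 h and 12.74, 12.9, and 13.14 as lowest, median, and highest at 6 h (2.24, SE 0.19, adjusted p = 3.08e-13). *Noc4l* was 4.53-fold higher at 6 h. *Nop14*, *Tsr1*, *Wdr43*, *Wdr75*, and *Dcaf13* lay between 2.04-fold and 3.24-fold.

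Of the 34 members, 22 had their largest mean difference at 6 h and 10 at 12 h, followed by *Gnl3* at 35 h and *Polr1c* at 48 h. *Nop56* was counted at 6 h, but peaked at 12 h in Th0, Th1, and Th2 cells. Its 12 h mean holds the Th1/2 array that stood apart (0.296 above 0 h, against 2.105 in experiment 2). The peak time was the same in both experiments for 18 members. At 3 h the members had reached a median of 67.4% of their peak on the log2 scale, and at 48 h 29.3% was left. By 120 h, 28 members had been at or below their 0 h level at some time, and *Npm1*, *Nhp2*, *Dkc1*, *Rrp1b*, *Polr1c*, and *Noc4l* had not. Across the 36 conditions after activation, each member's course was correlated with the mean of the other members with a median r of 0.97, from 0.676 for *Polr1c* to 0.995 for *Polr1b*. The conditions share arrays of 2 experiments and the 0 h values, so r is a description.

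Late in culture some members went below their naïve level. At 96 h *Rrp9*, *Pes1*, *Ftsj3*, and *Grwd1* were called 2-fold lower than 0 h (4 of 34, all genes 5.67%). At 120 h *Rrp12*, *Bop1*, *Pes1*, *Ftsj3*, and *Grwd1* were (5 of 34, all genes 5.31%). The count at 96 h was 1 without experiment 1 of Th0 cells, and 2 without experiment 1 of Th1, of Th2, or of Th1/2 cells. The count at 120 h was 3 without either of the arrays at 0 h. It was also 3 with a term for each experiment and time point, a fit that sets experiment 1 against both arrays at 0 h. Without a fold criterion 16 members were lower at 120 h (all genes 22.7%) and 0 higher (19.8%).

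**Figure D4:**
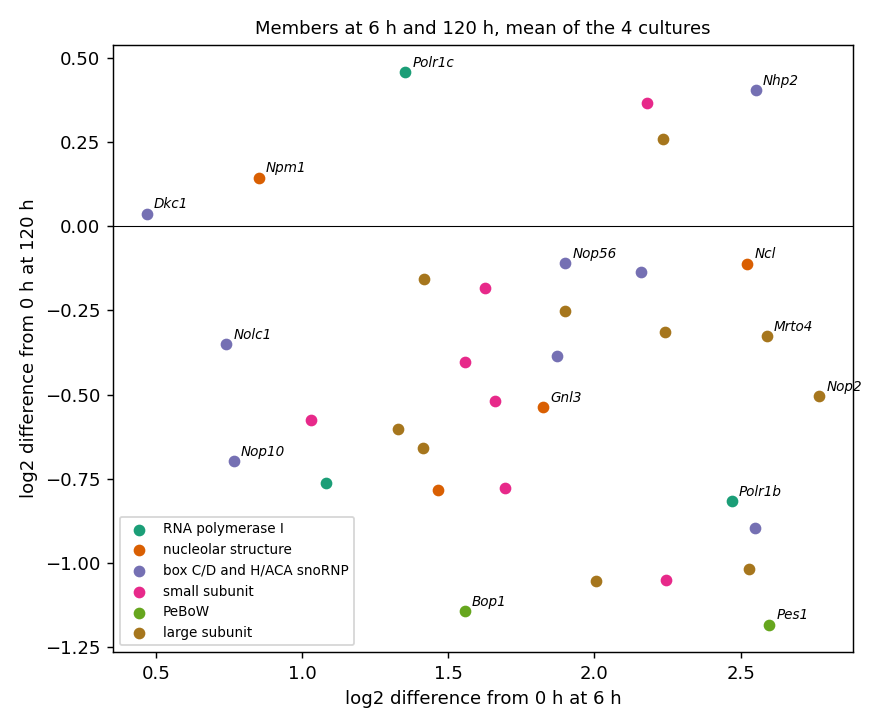
Log2 difference from 0 h at 120 h (vertical axis) against that at 6 h (horizontal axis) for the 34 members, each the mean of the 4 cultures, coloured by class. All lie to the right of 0 at 6 h, 28 lie below 0 at 120 h, and *Pes1* and *Bop1* lie lowest.

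The fall was tested as the mean over 73 to 120 h minus the mean over 24 to 35 h, which does not use the arrays at 0 h. All 34 members fell (limma, adjusted p under 0.05, no fold criterion), against 32.5% of all genes. Their median change was −1.73 on the log2 scale, against −0.015 for all genes. The fall was largest in *Grwd1* (−2.68, SE 0.09) and *Polr1b* (−2.60, SE 0.11) and smallest in *Dkc1* (−0.16, SE 0.06, adjusted p = 0.013), *Nolc1* (−0.62), and *Npm1* (−0.72). The median was −1.50 in Th0, −1.65 in Th1, −1.98 in Th2, and −1.76 in Th1/2 cells.

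No difference between the cultures was called in the members before 48 h. An F-test among the 4 cultures over 3 to 12 h called 0 of 34 members (limma, adjusted p under 0.05, all genes 3.17%). By unadjusted p it called 1 (all genes 8.63%), and the smallest adjusted p was 0.227. Over 24 to 35 h it called 0 members (all genes 5.38%), also 0 by unadjusted p (all genes 13.3%), with a smallest adjusted p of 0.444. With a term for each experiment and time point, *Noc4l* alone was called over 3 to 12 h, where all genes stood at 7.06%. The range of the 4 culture means had a median of 0.14 over the members at 3 to 12 h, 0.15 at 24 to 35 h, and 0.35 at 48 to 120 h.

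Over 48 to 120 h, 14 of 34 members differed among the cultures, against 29.8% of all genes. They were *Ncl*, *Nop56*, *Nop58*, *Gar1*, *Rrp12*, *Pes1*, *Wdr75*, *Ebna1bp2*, *Polr1a*, *Polr1c*, *Noc2l*, *Ddx21*, *Ftsj3*, and *Grwd1*. The count was 7 without experiment 1 of Th2 cells, where all genes stood at 24.8%. It was 24 with a term for each experiment and time point, where all genes stood at 42.6%. The change from 24-35 h to 73-120 h differed among the cultures for 6 members (all genes 12.5%), *Ncl*, *Nop58*, *Rrp12*, *Pes1*, *Ddx21*, and *Dcaf13*. This count was 3 without experiment 1 of Th0 cells, where all genes stood at 9.65%. It was 11 with the term for each experiment and time point, where all genes stood at 26%.

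Late Th2 cells had the lowest median of the 4 cultures, −0.31 from 0 h, against −0.07 in Th0, −0.05 in Th1, and −0.09 in Th1/2 cells. Against Th0 cells over 48 to 120 h, 16 members were lower (all genes 14%) and *Rrp12* was higher (11.1%). The median difference was −0.32 on the log2 scale, −0.32 in each experiment, against −0.008 over all genes, and 32 of 34 members were below 0. The lower members were 3 of 4 of nucleolar structure (*Ncl*, *Gnl3*, *Ddx21*), 3 of 8 of snoRNP (*Nop58*, *Gar1*, *Rrp9*), 5 of 10 of the large subunit (*Wdr74*, *Ebna1bp2*, *Noc2l*, *Ftsj3*, *Grwd1*), both *Bop1* and *Pes1*, *Polr1a* and *Polr1b*, and 1 of 7 of the small subunit (*Wdr75*). Without experiment 2 of Th0 cells the 16 became 5, with 1 higher, where all genes stood at 18.6% over both directions. Without experiment 1 of Th2 cells they became 7, with 1 higher, where all genes stood at 16.5%. Without both arrays that stood apart there were 15, of which 13 were shared (all genes 22.5% over both directions).

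*Pes1* differed most. Its late arrays ran from 7.85 through 8.41 to 9.03 in Th0 cells and from 6.99 through 7.31 to 7.95 in Th2 cells, so the cultures overlapped slightly. The difference was −0.96 (SE 0.11, adjusted p = 1.12e-09), −0.93 and −0.99 in the experiments. *Ncl* ran from 10.47 through 10.88 to 11.25 in Th0 and from 9.70 through 10 to 10.74 in Th2 cells (−0.78, SE 0.12, adjusted p = 6.94e-07), again with some overlap. *Pes1* and *Ncl* passed in all 18 other settings run, with largest adjusted p of 9.89e-06 and 0.000314. *Ebna1bp2*, a large-subunit factor, was next (−0.55, adjusted p = 0.000108).

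*Rrp12* went the other way. Its late arrays ran from 9.2 through 9.87 to 11.64 in Th0, from 9.04 through 10.04 to 11.61 in Th1, from 9.87 through 10.4 to 11.77 in Th2, and from 10.02 through 10.89 to 11.8 in Th1/2 cells. All of these ranges overlapped, since they span 48 to 120 h. Th2 cells exceeded Th0 cells by 0.57 (SE 0.12, adjusted p = 0.00034) and Th1/2 cells exceeded them by 0.90 (adjusted p = 1.36e-07). The Th2 difference was 0.28 (adjusted p = 0.0848) without experiment 1 of Th0 cells and 0.34 (adjusted p = 0.106) without experiment 2 of Th2 cells. *Polr1c* had the next highest Th2 minus Th0 value (0.28, adjusted p = 0.0855).

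**Figure D5:**
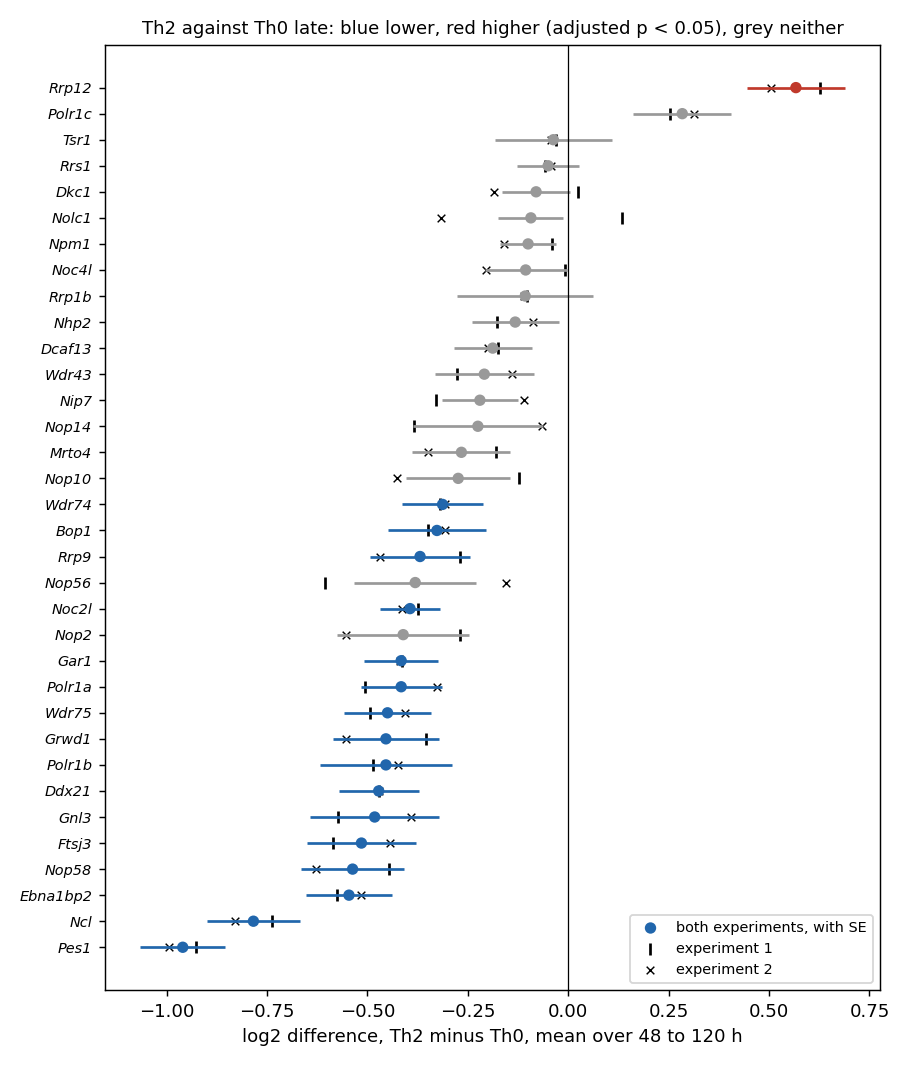
Late log2 difference of Th2 minus Th0 cells (horizontal axis, mean over 48 to 120 h) for each of the 34 members (vertical axis), with SE bars and the value of each experiment. Points run from −0.96 in *Pes1* to 0.57 in *Rrp12*, and the experiments disagree in sign for *Dkc1* and *Nolc1*.

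Between Th1 and Th2 cells, 9 members were higher in Th1 (all genes 10.5%) and *Rrp12* was lower (9.97%), with a median difference of 0.22. The members higher in Th1 cells were *Nop56*, *Nop58*, *Gar1*, *Pes1*, *Ebna1bp2*, *Polr1a*, *Noc2l*, *Ddx21*, and *Ftsj3*, by 0.27 to 0.52. The total of 10 became 6 without experiment 1 of Th1 cells (all genes 13.6%) and 5 without experiment 2 of Th1 cells (15.8%). It became 3 without experiment 1 of Th2 cells (13.9%). By direction, those higher in Th1 cells were 14 with experiment as a term and 14 without experiment 2 of Th2 cells. Over both directions all genes stood there at 22.1% and 17.6%. The total was 23 with the term for each experiment and time point (all genes 30.1%). Th1 and Th0 cells differed in *Ncl* and *Pes1*, both lower in Th1 cells by −0.47 (2 of 34, all genes 2.86%), and in no member the other way (2.94%). That count was 5 without experiment 1 of Th0 cells (all genes 8.44%) and 0 without experiment 1 of Th1 cells (3.63%). It was 4 with the term for each experiment and time point, where all genes stood at 12.8%. Without experiment 2 of Th0 cells no member was called lower in Th1 cells and 1 was called higher (all genes 3.89%).

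In Th1/2 cells 8 members were lower than in Th0 cells (all genes 13.8%) and *Rrp12* was higher (10.1%), with a median of −0.16. The lower ones were *Ncl*, *Pes1*, *Wdr75*, *Ebna1bp2*, *Polr1a*, *Noc2l*, *Ftsj3*, and *Grwd1*. The total of 9 was 15 without experiment 1 of Th0 cells (all genes 24.5%) and 3 without experiment 2 of Th0 cells (17.8%). It was 3 without experiment 1 of Th1/2 cells (17.6%) and 4 without the 2 arrays that stood apart (21.7%). It was 16 with the term for each experiment and time point (all genes 34.1%). Against Th1 cells, *Pes1* (−0.41) and *Ebna1bp2* (−0.30) were lower (all genes 8.41%) and *Rrp12* was higher by 0.72 (7.32%). Without experiment 2 of Th1 cells 1 member was left (all genes 12.2%), as without experiment 1 of Th1/2 cells (11.1%). Against Th2 cells no member was called higher (1.79%) or lower (2.33%) by limma, and the smallest adjusted p was 0.0892. By unadjusted p 4 passed, and no share of all genes is given for this count. The median of that difference was 0.16, and 8 members passed with the term for each experiment and time point (all genes 9.59%), all higher in Th1/2 cells.

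In the myeloid, B-cell, and NK-cell marker lists mainly a single gene differed between the late cultures. The summed intensity of the 6 myeloid markers was 537 to 583 in late Th0 arrays, 521 to 588 in Th1, 539 to 2385 in Th2, and 536 to 1727 in Th1/2, which came with *Adgre1* (a mean log2 level of 8.89 in Th2 and 6.56 in Th0 cells). *Itgam* was dim on every array and *Lyz2* did not differ late (6.28 and 6.33). The summed intensity of 3 B-cell markers was 337 to 456 in Th0 and 421 to 874 in Th2 cells, which came with *Cd79b* (7.48 and 8.35), while *Ms4a1* (6.59 and 6.74) and *Blnk* (6.76 and 6.83) were close. That of 3 NK-cell markers was 305 to 498 in Th0, 347 to 810 in Th1, 285 to 320 in Th2, and 294 to 370 in Th1/2 cells, with *Klrk1* at 8.19 in Th1 and 6.51 in Th2 cells and *Ncr1* dim on every array. The part of such cells in the differences of the members was not tested. *Gata3*, the Th2 master regulator, had a mean late level of 13.01 in Th2 and 12.72 in Th1/2 cells, against 10.5 in Th0 and 9.86 in Th1 cells.

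Other genes of ribosome biogenesis mostly rose early and fell late. From a list of 103 further genes, 102 had a probe and 95 were tested. At 6 h 52 of these 95 were called higher than 0 h (all genes 7.85%) and 0 lower, with a median of 1.03 on the log2 scale. In the members 30 of 34 were called higher, with a median of 1.85. At 3, 12, 24, 35, and 48 h the counts of higher genes were 29, 47, 35, 22, and 7 (all genes 4.55%, 8.58%, 10.9%, 10.3%, and 9.62%). Those of lower genes were 1, 0, 0, 1, and 3. At 73, 96, and 120 h 3, 1, and 0 genes were higher (all genes 8.3%, 7.52%, and 7.31%) and 3, 11, and 11 lower. All genes stood at 5.67% lower at 96 h and 5.31% at 120 h. From 24-35 h to 73-120 h 85 fell (all genes 32.5%) and 4 rose, namely *Znrd1* (0.40), *Nsa2* (0.49), *Exosc8* (0.18), and *Tsr3* (0.11). Late in Th2 cells 25 were lower than in Th0 cells (all genes 14%), with a median of −0.15. The 3 higher ones were *Exosc8*, *Tsr3*, and *Efl1* (all genes 11.1%). Whether the sizes of change in members and other genes of the pathway differ was not tested.

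Second probes mostly rose at 6 h too, but several disagreed at 120 h. Of the members, 16 had further probes above the filter, 21 in all. At 6 h 20 of these were above 0 h and 13 at least 2-fold. The exception was a second probe of *Tsr1*, at −0.10, while the first was at 1.66, so the 2 probes of this small-subunit factor disagree. At 120 h first and further probe differed in sign for *Bop1* (−1.14 and 0.04), *Nop10* (−0.70 and 0.04), *Tsr1* (−0.52 and 0.33), and *Nip7* (−0.25 and 0.23). So did those of *Nhp2* (0.40 and −0.13), *Ncl* (−0.11 and 0.01), and, in its dimmest probe, *Nop2* (−0.51 and 0.14). The other further probes above the filter shared the sign of the first. The further probes of *Bop1* and *Nip7* were close to the filter.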

How the data were processed

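Gene expression was measured on 74 Illumina mouse bead arrays. The authors deposited normalized probe intensities on the linear scale, running from 55.8 to 69892. The median of an array was at least 107 and at most 111. Per the methods, background was corrected, arrays were quantile-normalized, and log2 was taken, with software not given in the sources used here. Since the values are linear and already normalized, log2 was taken and nothing else was changed, and no column was left out. Of 45135 probes, 34773 had 1 gene symbol, 18 several, and 10344 none, which were not used here. Probes whose mean was above 6.77 on the log2 scale, the overall median, in any condition were kept, and the probe with the highest mean stood for each gene.

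The model in R 4.3.3 with limma 3.58.1 had 1 mean for each of the 37 conditions and moderated variances with 37 residual degrees of freedom, and p was adjusted after Benjamini and Hochberg over 13817 genes, with a threshold of 0.05. A 2-fold criterion was used against 0 h and none elsewhere. With 2 arrays per condition, precision rests on the spread shared over conditions (median residual SD 0.15 on the log2 scale). The arrays are 2 independent experiments per the paper, and p measures the spread between them. Residuals of arrays of the same experiment and time point had a median correlation of 0.536 over 54 pairs, against 0.108 over all 666 pairs, so the experiment numbers pair the samples. The main model was without this pairing, since the study's methods state no such block. It treats the arrays of a time point as independent, so p of contrasts over time is likely too small. For comparisons among cultures p is likely too large. Beyond the count at 120 h, no contrast over time is given from a fit with a term for each experiment and time point.

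The members, the classes, and the list of other pathway genes were chosen with earlier results of these data known. All members could be named. Full values were given for those with a defining role, the 3 largest and 3 smallest differences at 24 h, those never called higher, and the largest late differences of the pair of cultures with most calls. Other members given with values came to hand through their size and were chosen after their values were seen. The steps were tested on simulated data. Alternatives changed the normalization, array centring, probe choice, filter, variance model, pairing, fold criterion, and each replicate in turn. Promoter sequences are RefSeq's (GRCm38.p6), the first listed start of each gene, upstream bases alone.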

Additional observations from a re-analysis of the deposited data

Results flagged for a closer look

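The change from 24-35 h to 73-120 h differed among the 4 cultures for 6 of 34 members, against 12.5% of all genes. The test was limma's F-test over the 3 differences, adjusted over all genes. The adjusted p was 9.66e-05 for *Ncl*, whose log2 change was −1.14 in Th0, −1.82 in Th1, −2.43 in Th2, and −2.08 in Th1/2 cells. It was 0.000461 for *Pes1*, with changes of −1.43, −1.87, −2.47, and −2.25 in the same order. For *Ddx21* it was 0.00346 (−1.32, −1.65, −2.22, and −1.72). For *Nop58* it was 0.0158 (−1.24, −1.49, −2.20, and −1.82), and for *Dcaf13* 0.0381 (−0.995, −1.19, −1.66, and −1.35). These 5 genes fell least in Th0 and most in Th2 cells. *Rrp12* fell most in Th0 and least in Th1/2 cells, with an adjusted p of 0.00596 and changes of −2.85 in Th0, −2.79 in Th1, −2.28 in Th2, and −1.95 in Th1/2 cells.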

How the results depend on the processing

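The arrays limit what can be told: each condition has 2, all comparisons with 0 h rest on the same 2, and members near the filter (*Dkc1*, *Rrs1*, *Nolc1*) have little signal over background. Normexp with quantile normalization, a trended and robust variance, and the experiment as a replicate block each left all 29 counts (over both directions) and medians within 1.5 times or 1 SD. By direction, the experiment as a block gave 14 members higher in Th1 than in Th2 cells against 9, and normexp gave 2 lower against 1. Causes of the shifts below were not tested.

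With the paired arrays fitted as a replicate block by time point, calls among the cultures rose in the members and over all genes. Late, 24 members differed among the cultures (all genes 42.6%), 1 at 3 to 12 h (7.06%), and 11 in the fall (26%). The pairs gave 23 (Th1 and Th2, all genes 30.1%), 4 (Th1 and Th0, 12.8%), and 16 (Th1/2 and Th0, 34.1%). They gave 6 for Th1/2 and Th1 (all genes 25%) and 8 for Th1/2 and Th2 (9.59%). In Th2 cells 21 members were lower and 2 higher than in Th0 cells (all genes 34.6% over both directions). Without the 2 arrays that stood apart, 4 members differed between Th1/2 and Th0 cells (all genes 21.7%).

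At 1.5-fold, 15, 3, and 1 members were higher than 0 h at 48, 73, and 96 h, and with no fold criterion 19, 4, and 2. Adding 1.5-fold to the late pairs left 0 (Th1 and Th2), 0 (Th1 and Th0), 2 (Th2 and Th0), 3 (Th1/2 and Th0), and 1 (Th1/2 and Th1). With the mean of all expressed probes the median difference from 0 h at 6, 12, 24, 35, and 120 h was 1.617, 1.556, 1.385, 1.25, and −0.341, with 1 member higher at 73 h and 1 differing among the cultures early. Without the filter, over 38 members, the median at 6, 12, 24, and 35 h was 1.678, 1.713, 1.385, and 1.299, and at 73, 96, and 120 h −0.104, −0.312, and −0.368. With centred arrays it was 1.384, 1.335, and 0.409 at 24, 35, and 48 h, and −0.328, −0.533, and −0.547 at 73, 96, and 120 h.

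Leaving out each replicate in turn gave medians of 1.182 to 1.357, 1.754 to 1.886, and 1.709 to 1.824 at 3, 6, and 12 h, of 1.33 to 1.567, 1.218 to 1.456, and 0.442 to 0.603 at 24, 35, and 48 h, and of −0.225 to −0.099, −0.609 to −0.388, and −0.552 to −0.402 at 73, 96, and 120 h. Members higher than 0 h numbered 20 to 24, 29 to 30, and 29 to 31 at 3, 6, and 12 h, 24 to 28, 22 to 25, and 6 to 9 at 24, 35, and 48 h, and 0 to 1 at 73 h. Late, 7 to 21 differed among the cultures, 3 to 15 between Th1 and Th2, 0 to 5 between Th1 and Th0, 6 to 21 between Th2 and Th0, 3 to 15 between Th1/2 and Th0, 1 to 4 between Th1/2 and Th1, and 0 to 3 between Th1/2 and Th2 cells. In the same order, all genes stood at 24.8% to 31.5%, 13.6% to 20.9%, 3.63% to 8.44%, and 16.5% to 25.2%. For the last 3 pairs they stood at 17.6% to 24.5%, 10.2% to 16%, and 2.54% to 4.15%. The fall was called in 33 to 34 members and differed among the cultures in 3 to 7 (all genes 9.65% to 12.9%).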
